A study of Mus musculus with 6 samples.

Results

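Sperm ion channels and exchangers are described here as RNA recovered with the protein PNMA4 from dense material of mouse testis. The 10 genes were chosen by symbol from the deposited table of 57010 gene IDs, and all 10 were found. They are the CatSper channel genes Catsper1, Catsper2, Catsper3, Catsper4, Catsperb and Catsperd, the potassium channel gene Kcnu1, the sodium-proton exchanger gene Slc9c1, the proton channel gene Hvcn1 and the sodium pump gene Atp1a4. PNMA4 (gene Moap1) derives from a retrotransposon capsid gene, and the study asked which RNA comes down with it. Each of 6 lysates held 8 testes of mice aged 3 months. In each, PNMA4 was immunoprecipitated with a polyclonal antibody from density gradient fractions 8 and 9. The 3 wild-type lysates are C57BL/6J. The 3 lysates lacking PNMA4 are 2 of Pnma4 KO mice (replicates 1 and 2) and 1 of mice lacking Pnma1 as well (DKO, which the labels count as replicate 3). The sources used here do not give the strain or alleles of the knockouts or the number of mice per lysate. The design text calls the lysates biological replicates.

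CatSper is the calcium channel of the sperm tail. Its pore is built from CATSPER1, CATSPER2, CATSPER3 and CATSPER4, and CATSPERB and CATSPERD are among the auxiliary proteins that sit with the pore in the membrane. The channel opens when the sperm cytoplasm becomes alkaline, the calcium that enters drives hyperactivated swimming, and male mice without it are infertile. KCNU1 (SLO3) is the alkaline-activated potassium channel that hyperpolarises mouse sperm, SLC9C1 is the sperm-specific sodium-proton exchanger linked to soluble adenylyl cyclase, HVCN1 is a voltage-gated proton channel, and ATP1A4 is the sperm form of the sodium pump's catalytic subunit. Their messages belong mainly to late spermatocytes and spermatids, apart from Hvcn1, which is also known from immune cells.

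Total counts ran from 3138657 to 6367930 per library, of which the 10 genes held 0.0516% to 0.105%. Moap1 had 7, 26 and 27 counts in wild type and 0 in every library lacking PNMA4, and Pnma1 had 0 counts in the DKO alone. Germ cell markers were present throughout, with summed levels of 168 to 245 CPM (counts scaled to a common library size) over 7 round spermatid markers and 1500 to 1992 CPM over 8 elongating spermatid markers. The DKO library stood apart, with 57.5% of its counts in the ribosomal RNA-like gene Rn18s-rs5 (27.3% to 36.1% in the other 5) and 417 CPM over 7 Leydig cell markers (159 to 208 CPM in the others). Levels here are CPM of library sizes scaled for composition with TMM factors, 1 count being worth 0.128 to 0.334 CPM. They are not divided by transcript length, so levels of different genes are not ranked. In bulk material fewer cells of a type and less RNA per cell cannot be told apart. Nor can either be told from different recovery in the immunoprecipitate, since lysate RNA was not analysed here.

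Messages of 9 of the 10 genes were recovered in every library, from wild type and without PNMA4 alike. Mean levels over all libraries ran from 13.3 CPM for Catsper3 to 326 CPM for Atp1a4, and Hvcn1 was at 0.387 CPM. No gene of the 9 passed the test between wild type and the group lacking PNMA4 in edgeR (quasi-likelihood test over 13413 genes, Benjamini-Hochberg threshold 0.05). In this edgeR fit 0 genes also had an unadjusted p under 0.05, and no gene separated the groups. DESeq2 and limma-voom called 0 after adjustment, while limma-voom gave 1 gene an unadjusted p under 0.05 (0.0201). Of all 13413 genes, 0.0596% were called, 2.92% had an unadjusted p under 0.05 and 6.69% had groups that do not overlap. Log2 fold changes (wild type over lacking PNMA4) were positive for 4 genes and negative for 5, from −0.51 to 0.17 with a median of −0.094, where all tested genes had a median of 0.012. For 8 of the 9 genes the 95% interval lay within 1 of 0 on the log2 scale, so a 2-fold change against the bulk of genes, up or down, was outside it. The same held for 71.1% of all genes tested. Catsperb was the exception.

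**Figure D1:**
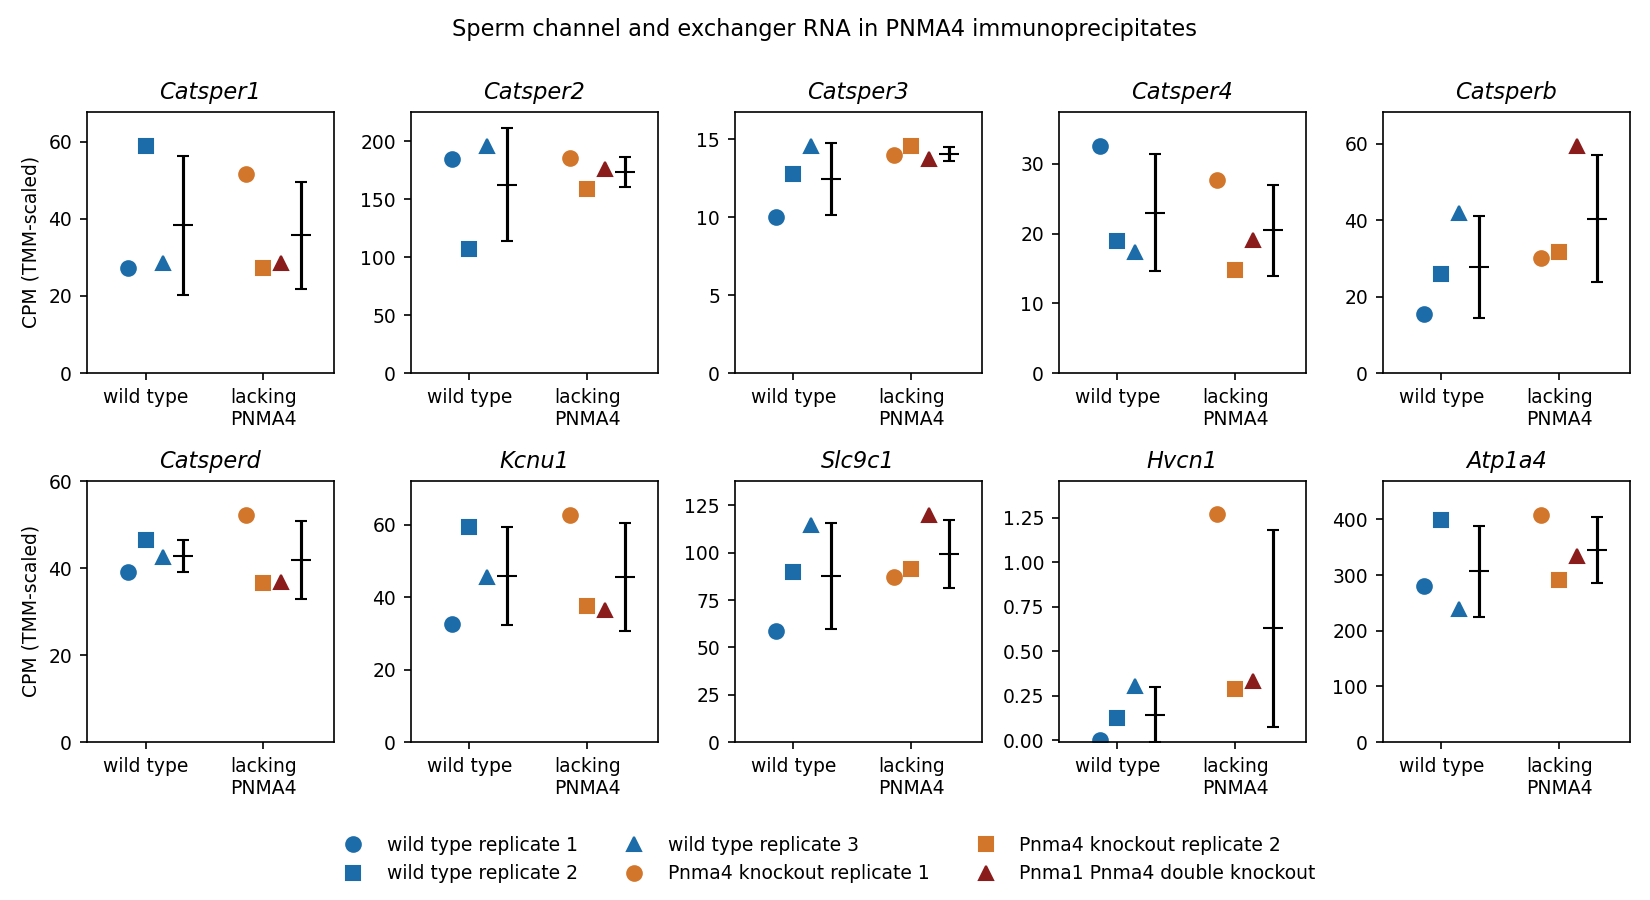
Level of each of the 10 genes in each library, in TMM-scaled CPM on a linear axis, with wild-type libraries in blue, Pnma4 knockouts in orange and the double knockout in dark red; black bars are the mean and SD of 3 libraries. The groups overlap in every panel, and Hvcn1 reaches at most 1.27 CPM.

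The pore subunit genes showed library-to-library spread of different size, and none separated the groups. Catsper1 (ENSMUSG00000038498, chromosome 19, 5335615 to 5344281 in GRCm38.p6) encodes the subunit whose histidine-rich N terminus is thought to sense alkalinity. It stood at 27.3, 59.0 and 28.6 CPM in wild-type replicates 1 to 3, at 51.7 and 27.1 CPM in Pnma4 KO replicates 1 and 2 and at 28.4 CPM in the DKO. Each group thus had 1 high library, and the remaining 4 lay within 27.1 to 28.6 CPM. The group means were 38.3 ± 17.9 and 35.8 ± 13.8 CPM (SD, n = 3 each), a log2 fold change of 0.13 (standard error 0.28, adjusted p = 1.00 in edgeR). The sign turned without wild-type replicate 2 (−0.34), without Pnma4 KO replicate 2 (−0.062) and without the DKO (−0.0012).

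Catsper2 (ENSMUSG00000033486, chromosome 2, 121391633 to 121414598) was recovered with 526 to 1276 counts per library. It stood at 184, 107 and 196 CPM in wild type and at 185, 159 and 176 CPM in the 2 Pnma4 KO libraries and the DKO. Wild-type replicate 2 was low and the other 5 libraries lay within 159 to 196 CPM. The means were 162 ± 48.4 and 173 ± 13.3 CPM (SD, n = 3 each; log2 fold change −0.094, 95% interval −0.56 to 0.37). In RefSeq the gene shares 697 bases at its start with Pdia3, which had 268 to 776 counts. No source used here states whether counting used strand, so reads of that stretch are uncertain as to their gene.

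Catsper3 (ENSMUSG00000021499, chromosome 13, 55784500 to 55824048) was the pore gene with the smallest spread. It stood at 9.99, 12.8 and 14.6 CPM in wild type and at 14.0, 14.6 and 13.7 CPM without PNMA4, with only wild-type replicate 1 below the rest. These values rest on 38 to 102 counts per library. Their coefficient of variation over the 6 libraries was 13.1%, and counting error alone gives 13.2%, so no spread beyond counting was detectable for this gene. Its log2 fold change was −0.17 (95% interval −0.67 to 0.34).

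Catsper4 (ENSMUSG00000048003, chromosome 4, 134211965 to 134227431) stood at 32.6, 18.9 and 17.4 CPM in wild type and at 27.6, 14.7 and 19.1 CPM without PNMA4. Replicate 1 was the highest library in each group, though the labels do not say that these lysates were made together. The means were 23.0 ± 8.38 and 20.5 ± 6.56 CPM (SD, n = 3 each), with a log2 fold change of 0.17 (95% interval −0.40 to 0.73). The sign turned without wild-type replicate 1 (−0.16) or without Pnma4 KO replicate 2 (−0.047).

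Of the auxiliary subunit genes, Catsperb had the largest difference among the 9 tested genes and Catsperd among the smallest. Catsperb (ENSMUSG00000047014, chromosome 12, 101404645 to 101626009) encodes a large membrane protein with a big extracellular part, and lies 1113821 bases from the deleted Moap1 gene on the same chromosome. It stood at 15.5, 26.0 and 41.8 CPM in wild type, at 30.1 and 31.6 CPM in the Pnma4 KO libraries and at 59.5 CPM in the DKO. Wild-type replicate 1 was the lowest and the DKO the highest library, and wild-type replicate 3 lay above both Pnma4 KO libraries. The means were 27.8 ± 13.2 and 40.4 ± 16.6 CPM (SD, n = 3 each), a log2 fold change of −0.51 (standard error 0.29, 95% interval −1.11 to 0.090, unadjusted p = 0.0923, edgeR adjusted p = 1.00). With 1 library left out it ran from −0.14 without the DKO to −0.91 without wild-type replicate 3, the lowest edgeR adjusted p being 0.338. The unadjusted p in that last edgeR fit was 0.00351. Its coefficient of variation of 44.3% was 5.05 times that of counting error.

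Catsperd (ENSMUSG00000040828, chromosome 17, 56626911 to 56664456), whose protein is needed for the channel complex to be stable, was more even. It stood at 39.2, 46.6 and 42.6 CPM in wild type and at 52.4, 36.6 and 36.8 CPM without PNMA4, so the wild-type values all fell inside the range of the other group. Its log2 fold change was 0.038 with a 95% interval of −0.40 to 0.48.

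The other genes of the CatSper complex were also present without a called difference. Of 12 listed symbols 11 were in the table and 10 were tested. Of these 0 passed edgeR in either direction, 5 were positive and 5 negative, and the median log2 fold change was 0.034. C2cd6, whose product CATSPERτ helps carry the channel into the tail, had wild-type libraries at 632 ± 241 CPM and those lacking PNMA4 at 664 ± 64.8 CPM. Catsperg1 stood at 227 ± 21.4 and 197 ± 34.2 CPM, and Catsperg2 at 79.7 ± 7.74 and 74.6 ± 11.8 CPM. These are near-identical copies of the gamma subunit gene, so reads may be split between them. Slco6c1, a transporter found with the channel, stood at 47.5 ± 19.9 and 61.5 ± 11.8 CPM (SD, n = 3 in each case). Catspere2 alone had an unadjusted p under 0.05 (0.0281, log2 fold change 0.59, edgeR adjusted p = 1.00). It was named after its values were seen, and its reads may be shared with its copy Catspere1 (log2 fold change 0.26).

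**Figure D2:**
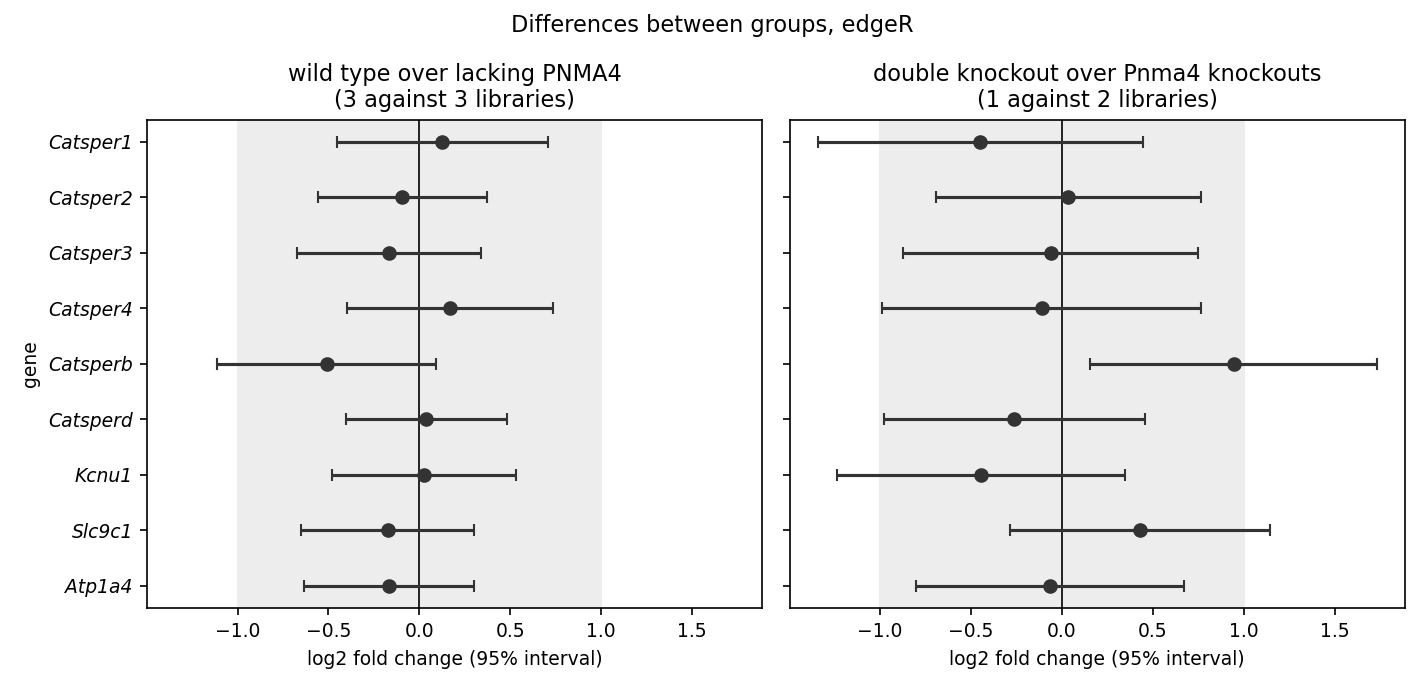
Log2 fold changes of the 9 tested genes with 95% intervals from edgeR, for wild type over the group lacking PNMA4 (left) and for the double knockout over the Pnma4 knockouts (right); grey marks differences within 1 of 0. All intervals on the left include 0, and on the right that of Catsperb lies above 0.

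Kcnu1 (ENSMUSG00000031576, chromosome 8, 25848627 to 25937943) had group means that differed by less than its spread. It stood at 32.6, 59.5 and 45.6 CPM in wild type and at 62.8, 37.6 and 36.4 CPM without PNMA4. The highest library was Pnma4 KO replicate 1 and the next was wild-type replicate 2. The means were 45.9 ± 13.4 and 45.6 ± 14.9 CPM (SD, n = 3 each), with a log2 fold change of 0.027 (95% interval −0.48 to 0.53). Lrrc52, which encodes the partner protein that shifts SLO3 gating, stood at 4.76 ± 1.69 and 4.33 ± 0.951 CPM from 12 to 51 counts per library. Of the 5 genes of the potassium channel list 3 were tested and 0 passed edgeR. All 3 were positive, at 0.21 to 0.36, and none had an unadjusted p under 0.05.

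Slc9c1 (ENSMUSG00000033210, chromosome 16, 45535266 to 45607001) was recovered at 58.6, 89.7 and 115 CPM in wild type and at 86.9, 91.3 and 120 CPM without PNMA4. Wild-type replicate 1 was low, and the DKO and wild-type replicate 3 were high. The means were 87.7 ± 28.1 and 99.4 ± 18.0 CPM (SD, n = 3 each), a log2 fold change of −0.17 with a 95% interval of −0.65 to 0.30. Without wild-type replicate 1 it was 0.035. Adcy10, the soluble adenylyl cyclase with which the exchanger works, stood at 347 ± 60.4 and 355 ± 41.8 CPM (log2 fold change −0.033, 95% interval −0.47 to 0.41).

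The list of other proton and anion exchangers, which includes carbonic anhydrases, had 8 of 11 genes tested. Of these, 0 were called by edgeR, 5 were positive and 3 negative. Slc26a8, an anion transporter of the sperm annulus, stood at 106 ± 22.1 and 98.0 ± 12.9 CPM. The sodium-proton exchanger genes Slc9b1, Slc9a8 and Slc9a5 had log2 fold changes of −0.29, 0.15 and 0.29 with standard errors of 0.21, 0.21 and 0.24. Slc9b1 is testis-specific and Slc9a8 is known from the acrosome.

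Hvcn1 (ENSMUSG00000064267, chromosome 5, 122206805 to 122242297) was at the edge of detection and did not pass the filter on low counts. It had 0, 1 and 2 counts in wild-type replicates 1 to 3, 4 and 2 in Pnma4 KO replicates 1 and 2, and 1 in the DKO. The count of 0 allows up to 0.789 CPM in that library (3 counts). Summed over libraries, 3 counts stood against 7, a ratio of 3.22 for lacking PNMA4 over wild type with an exact 95% interval of 0.735 to 19.3 that covers counting error only. No difference was detectable at this depth. The 6 macrophage and leukocyte markers summed to 8.76 to 14.7 CPM, and their part in these counts was not tested. The gene shares 2803 bases with Tctn1 in RefSeq, which had 85 to 349 counts.

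Atp1a4 (ENSMUSG00000007107, chromosome 1, 172223508 to 172258424) gave 1001 to 3117 counts per library. It stood at 281, 399 and 240 CPM in wild type and at 409, 292 and 335 CPM without PNMA4. Pnma4 KO replicate 1 and wild-type replicate 2 were highest and wild-type replicate 3 lowest. The means were 307 ± 82.3 and 345 ± 59.1 CPM (SD, n = 3 each), a log2 fold change of −0.17 (standard error 0.23, 95% interval −0.64 to 0.30). Counting error gives a coefficient of variation of 2.63% for this gene against 20.7% observed, so its spread lies between libraries.

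The other sodium pump genes were mixed, and 0 of the 6 tested of 8 passed edgeR. Atp1b3, a beta subunit gene, stood at 165 ± 30.9 and 182 ± 18.0 CPM. Atp1b2, another beta subunit gene, stood at 23.1 ± 5.30 and 21.8 ± 3.04 CPM (SD, n = 3 in each case).

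Genes that handle calcium, chloride and the signals of capacitation, the ripening that lets sperm fertilise, gave 0 called genes as well. The list of calcium pumps and exchangers had 7 tested of 8 (2 positive, 5 negative, median −0.10), chloride and other cation channels 13 of 14 (7 and 6, median 0.0093) and capacitation signalling 14 of 14 (7 and 7, median 0.010). Atp2b4, the plasma membrane calcium pump of the sperm tail, stood at 249 ± 23.2 and 231 ± 47.4 CPM, Pkdrej, a polycystin-like gene of sperm, at 140 ± 20.2 and 138 ± 13.5 CPM, and the egg-activating phospholipase gene Plcz1 at 110 ± 3.94 and 119 ± 14.3 CPM (SD, n = 3 in each case). Over all 7 lists 61 genes were tested and 0 passed edgeR, while 2 had an unadjusted p under 0.05. DESeq2 and limma-voom also called 0. The median log2 fold change was 0.017, with 32 positive and 29 negative. Of the 61 genes 2 had separate groups, where 6.69% of all 13413 tested genes did. These were Atp2b2 and Pkd2l1, both higher in wild type, at 0.71 and 0.55. Their edgeR intervals included 0 (−0.26 to 1.68 and −0.089 to 1.19), and Atp2b2 had only 3 to 20 counts per library. Among listed genes too low to be tested, Tmem262, Car4 and Slc8b1 also had separate groups in CPM, all lower in wild type. Before scaling they were not separate. Wild-type replicate 2 held 11 reads of Tmem262, 2 of Car4 and 9 of Slc8b1, where the DKO held 10, 2 and 5. How often untested genes separate was not computed, so no direction is read from these genes.

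**Figure D3:**
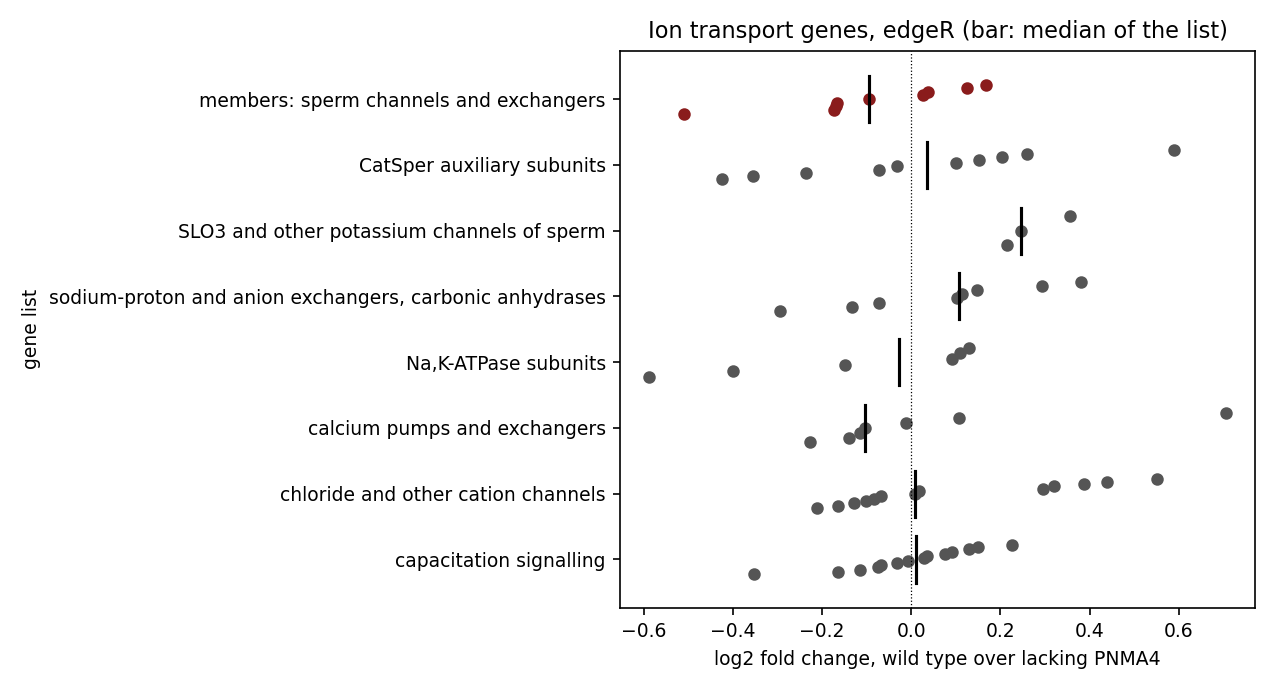
Log2 fold change of wild type over the group lacking PNMA4 from edgeR for each tested gene, by list, with points of a list spread vertically for legibility; the vertical bar is the list's median. The 9 sperm channel and exchanger genes (dark red) run from −0.51 for Catsperb to 0.17 for Catsper4, and no point in the plot passed the test.

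The libraries that were high or low differed from gene to gene and crossed the groups. Wild-type replicate 2 and Pnma4 KO replicate 1 were the highest 2 libraries for Catsper1, Catsperd, Kcnu1 and Atp1a4, that is 4 of the 9 genes, where 8.30% of all tested genes had this pair on top. For Catsper1 these libraries lay 0.75 and 0.56 above the gene's mean log2 CPM and the other 4 lay 0.29 to 0.37 below it. Catsperb and Slc9c1 had another order, with the DKO and wild-type replicate 3 on top (as in 11.2% of all tested genes) and wild-type replicate 1 at the bottom. Catsper2 went against the first set, being lowest in wild-type replicate 2. These sets were formed after their values were seen and are given as a description. Wild-type replicate 1 was the lowest library for 4 of the 9 genes, and Pnma4 KO replicate 1 the highest for 3. The matching shares of all tested genes were not computed, so these counts may not be particular to the 9 genes. Spread over counting error, as the ratio of coefficients of variation, was lowest for Catsper3 (0.997) and Catsperd (2.00) and highest for Atp1a4 (7.86).

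**Figure D4:**
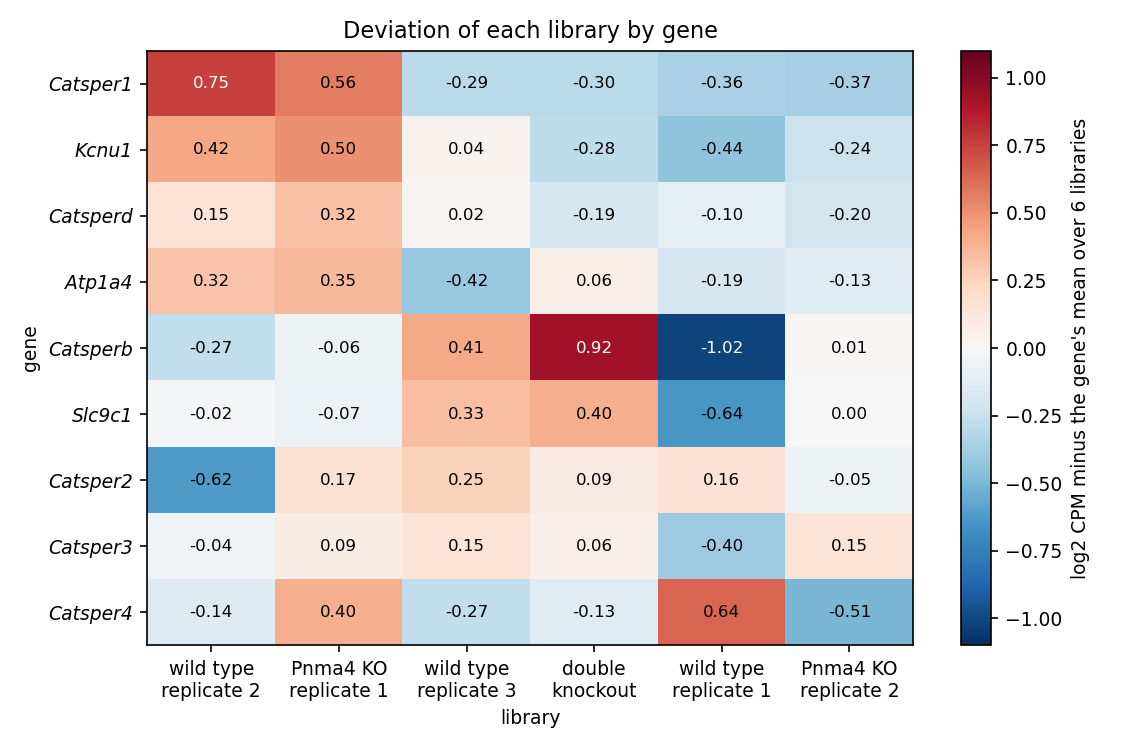
Deviation of log2 CPM from each gene's mean over the 6 libraries, with red above and blue below the mean, for the 9 tested genes (rows) and the libraries (columns, ordered to set like libraries together). Catsper1, Kcnu1, Catsperd and Atp1a4 are red in wild-type replicate 2 and Pnma4 KO replicate 1, which belong to different groups.

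The summed elongating spermatid markers had the same pair of libraries on top as Catsper1, Catsperd, Kcnu1 and Atp1a4. They stood at 1992 CPM in Pnma4 KO replicate 1, 1949 CPM in wild-type replicate 2, 1897 CPM in the DKO, 1838 CPM in wild-type replicate 1, 1755 CPM in Pnma4 KO replicate 2 and 1500 CPM in wild-type replicate 3. Atp1a4 had this order of libraries except that Pnma4 KO replicate 2 lay above wild-type replicate 1. The round spermatid markers were also highest in Pnma4 KO replicate 1 (245 CPM) and lowest in wild-type replicate 3 (168 CPM), while Catsper2 and Catsper3 were highest in wild-type replicate 3. The part of spermatid content in these levels was not tested.

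Within the group lacking PNMA4, the DKO was compared with the Pnma4 KO libraries to see whether the further loss of Pnma1 went with other levels. In this fit the DKO is 1 library, assumed to vary like the others, and all 3 libraries also entered the comparison with wild type. The TMM factor of the DKO was 0.628, against 1.01 to 1.29 in the other 5 libraries, so its CPM values rest more on the scaling. Of the 9 genes 0 passed edgeR and 1 had an unadjusted p under 0.05, where 0.0746% of all genes tested were called and 6.19% had an unadjusted p under 0.05. DESeq2 called 0 of the 9. The gene was Catsperb, with 59.5 CPM in the DKO against a mean of 30.9 CPM in the Pnma4 KO libraries (log2 fold change 0.95, 95% interval 0.16 to 1.73, unadjusted p = 0.0203, edgeR adjusted p = 0.682). Before scaling, Catsperb had 178 of 4781490 counts in the DKO, against 95 of 3138657 and 221 of 6367930 in Pnma4 KO replicates 1 and 2. Slc9c1 stood at 120 CPM in the DKO against a mean of 89.1 CPM (log2 fold change 0.43, 95% interval −0.29 to 1.14). Catsper1 and Kcnu1 had log2 fold changes of −0.45 each, with 95% intervals of −1.34 to 0.45 and −1.24 to 0.35, so a 2-fold lower level was not outside the interval. Against the mean of the other 5, this library also held 2.33 times the Leydig cell marker sum, 2.11 times that of the epididymis, 2.02 times that of blood, 1.66 times that of Sertoli cells and 1.43 times that of peritubular, vascular and stromal cells. The ratio was 1.29 for macrophages and leukocytes and 1.01 to 1.21 for the 4 germ cell lists, and the part of these cells in the Catsperb value was not tested. The summed level of the 10 genes was 825 CPM in the DKO and 681 to 921 CPM in the other 5 libraries.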

How the data were processed

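The authors deposited 1 table of raw counts per Ensembl gene ID, with a column for each of the 6 libraries, per the file headers. The submitters' processing notes name bcl2fastq 2.20, STAR 2.5.2b, featureCounts, DESeq2 and the build GRCm38, without roles or settings. Total counts ran from 3138657 to 6367930.

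The whole table was tested with edgeR 4.0.16 in R 4.3.3 (quasi-likelihood F test, TMM factors, filterByExpr at its minimum count of 10 and total of 15, Benjamini-Hochberg adjustment over 13413 genes at 0.05), a step tested on simulated data. Standard errors are the absolute log2 fold change over the square root of F. Counting error is the root of the mean inverse count. Intervals from counts and floors (3 counts) cover counting error only. A fit with 3 genotypes gave the contrast within the group lacking PNMA4.

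The 10 genes and the lists were chosen with earlier results of these data known. All 10 were named, as were called genes of the other lists, or else up to 4 of highest CPM. Genes outside this rule that had a low p or separate groups were named after their values were seen. The result of 1 gene that the rule named is left out of the text but stays in the counts. Coordinates and overlaps come from the RefSeq gene table of GRCm38.p6, in which all 10 symbols matched. Alternatives were DESeq2 1.42.0, limma-voom (limma 3.58.1), other scalings and filters, the replicate number as a block, rRNA-like genes left out and each library left out. Same-numbered libraries had correlations of deviations of 0.037, −0.064 and 0.079, so the numbers were not taken as pairs.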

Additional observations from a re-analysis of the deposited data

How the results depend on the processing

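The count of 0 called among the 9 genes, among the other ion transport genes and, for the 9 genes, in the double knockout contrast held under every alternative run for each, and with each library left out for the first pair. The count over all genes was 8, became 31 with no filter on low counts, which tests 34610 genes, and ran from 8 to 18 with 1 library left out (18 without the double knockout). Without scaling factors the median of all genes moved to 0.31, and Catsper2 (0.18), Catsper3 (0.13), Slc9c1 (0.18) and Atp1a4 (0.16) turned positive but stayed below that median. Catsperb moved from −0.51 to −0.12 without scaling factors. Kcnu1 was −0.013 in limma-voom. With 1 library left out the log2 fold change ran from −0.34 to 0.48 for Catsper1, −0.25 to 0.14 for Catsper2, −0.16 to 0.44 for Catsper4, −0.063 to 0.22 for Catsperd, −0.20 to 0.32 for Kcnu1 and −0.41 to 0.035 for Slc9c1. The cause of these turns was not tested. With the replicate block 0 of the 9 genes and 7 genes in all were called (lowest unadjusted p among the 9 genes 0.0167). With this block 1 gene had an unadjusted p under 0.05. The count was also 1 in limma-voom, with no filter on low counts, and without wild-type replicate 3 or either Pnma4 KO replicate. The lowest of these was 0.00351 in edgeR, without wild-type replicate 3. In the edgeR fits among these the gene was Catsperb. Its log2 fold change stayed negative in all 15 alternatives, and it was called in 0 of them. Depth limits Hvcn1, with 10 counts in all.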
